A study of Arabidopsis thaliana with 44 samples.

Results

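Plant cells enlarge by loosening a wall of cellulose, hemicellulose and pectin, and the gene families described here make, cut, modify or loosen those polymers. Alpha-expansins (EXPA) and beta-expansins (EXPB) are secreted proteins that let wall polymers slip past each other, and the expansin-like EXLA and EXLB proteins are related by sequence. XTH enzymes cut and rejoin xyloglucan, TBL proteins are mostly known as acetyltransferases of wall polysaccharides, and CESA and CSL proteins synthesise cellulose and other polysaccharide backbones. The genes were chosen by symbol: each needed a probe set annotated to it alone and a symbol beginning with EXPA, EXPB, EXLA, EXLB, XTH, XTR, TBL, CESA or CSL. Of 143 such loci in the gene table, 57 were measured in this way, among 13355 genes tested. They were 22 of 41 TBL, 10 of 24 EXPA, 9 of 30 XTH, 8 of 30 CSL, 4 of 6 EXPB, all 3 EXLA and the single EXLB gene. None of the 7 CESA loci was among them, so the cellulose synthases themselves are not analysed here, nor is the 1 XTR locus. Each of the 57 genes had 1 probe set.

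Transcript levels, as log2 expression, came from 44 arrays in 22 groups of 2, each array hybridised with RNA of 30 to 40 pooled whole Arabidopsis thaliana seedlings. The seedlings were wild type (WT) or carried atm-1, a mutant allele of ATM, the kinase that signals broken DNA. The irradiated ones were given gamma rays (100 Gy) or HZE, which are high-energy iron nuclei (30 Gy), and WT was sampled 1.5, 3, 6, 12 and 24 h later, atm-1 at the same times except 3 h. Unirradiated seedlings of each genotype were sampled on day 1 and day 2, and all were 5 days old, except the 24 h groups and the day 2 controls at 6 days. The labels name the allele atm-1 alone, give no strain, and do not say whether the 2 arrays of a group came from separate cultures or, for HZE, which was given in 2 runs, from which run, so p-values measure the spread between these samples, which may be technical. In whole seedlings, fewer cells of a type and less RNA per cell cannot be told apart, and no gene of the leaf, root or root hair marker lists was measured with which to check the tissue.

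Clock time limits the comparisons with controls. Day 1 controls were taken at 10:45 am and day 2 controls at 9:15 am. The gamma groups of 1.5, 3 and 24 h were taken near those times, at 10:10 am, 11:40 am and 8:40 am. The gamma groups of 6 and 12 h and every HZE group were taken hours away, so that in those groups radiation and time of day cannot be told apart. The clock genes GI and CCL differed from controls in most WT groups, also in some taken near the control's clock time. CCL differed by log2 5.53 at WT HZE 3 h, and by -1.89 and -3.67 at WT gamma 1.5 and 24 h, where clock times were close. GI was higher by 2.41 at WT HZE 3 h and by 1.11 at WT gamma 24 h, and was also called higher at WT gamma 1.5 h. Neither was called at WT HZE 24 h (GI 0.33, CCL 0.39) or WT gamma 3 h (GI 0.22, CCL 0.03). WT and atm-1 were sampled at the same clock time after the same radiation and time. No unirradiated group of either genotype was taken at the clock times of gamma 6 and 12 h or of the HZE groups. In those groups a genotype difference in time-of-day expression cannot be told apart from one in the response to radiation. A gene was called where the limma adjusted p, corrected over all 13355 genes, was under 0.05. Changes are log2 differences, and SE is the fitted standard error.

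Array medians ran from 5.82 to 5.98 except in atm-1 gamma 6 h replicate 1, at 5.73. In that array the 19 genes of these families with a mean level under 5 had a median of 4.22, against 3.82 to 4.17 in the other arrays. EXPB2 read 5.84 there and 4.83 in the other replicate, and the calls of EXPB2, TBL15, TBL42 and TBL43 in that group ended without that array. The 2 arrays of WT gamma 3 h also differed for single genes, with EXPA8 at 10.52 and 7.96 and EXPB3 at 6.59 and 5.26.

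More of these genes were called lower than higher in each comparison with controls except atm-1 gamma 6 h and HZE 24 h of both genotypes. In several gamma groups the share called was near or below that of all genes. Falls were most numerous in the first hours after HZE, in groups where radiation and time of day cannot be told apart. At 1.5 h after HZE in WT, 28 of the 57 genes fell and 6 rose. Over all genes 20.6% were called lower and 20.9% higher at that time (41.6% in all). The median change of the 57 genes was log2 -0.36, beside 0.00 over all genes. At 3 h after HZE, 26 fell and 4 rose, against 22.2% and 23.4% of all genes (45.6% in all), and the median was -0.28. At 6 h, 18 fell and 6 rose, against 17.5% and 14.1% (31.6% in all). At 12 h the counts were 13 and 6, against 15.4% and 13.6% (29.0% in all). At 24 h only 2 genes, XTH16 and TBL45, were called lower and 5 higher, against 1.21% and 2.39% (3.59% in all). Of those 7 calls, that of XTH18 alone held when any 1 array was left out, and the count ran from 1 (without WT HZE 24 h replicate 1) to 4.

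After gamma in WT fewer of these genes were called than after HZE at each of 1.5, 3, 6 and 12 h, and more at 24 h (25 against 7). At 1.5 h, taken near the control's clock time as were 3 and 24 h, 14 genes fell and 3 rose. Over all genes 8.84% were lower and 8.30% higher (17.1% in all), and the member median was log2 -0.16 beside 0.01. At 3 h, 11 fell and 5 rose, against 9.13% and 7.29% (16.4% in all). The counts were 10 lower and 5 higher at 6 h, against 13.9% and 11.8% (25.8% in all), a share near that of all genes. At 12 h 7 fell and 6 rose, against 14.7% and 13.6% (28.3% in all). At 24 h 16 fell and 9 rose, against 17.4% and 14.1% (31.6% in all). Of the 17 calls at 1.5 h, 8 held when any 1 array of the compared groups was left out, and of the 16 calls at 3 h, 3 did. Leaving out WT gamma 1.5 h replicate 2 lowered the 1.5 h count to 10, and the 3 h count fell to 7 or 8 without WT control day 1 replicate 2 or 1 and to 10 without WT gamma 3 h replicate 2. The 6 h count fell to 9 without any 1 of its 4 arrays, and the 12 h count to 8 without WT gamma 12 h replicate 1.

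In atm-1 the early fall after HZE was also seen. At 1.5 h after HZE, 24 genes fell and 4 rose, against 17.6% and 19.3% of all genes (36.8% in all), with a median of log2 -0.30 beside 0.02. At 6 h 12 fell and 4 rose (11.2% and 12.2% of all genes, 23.3% in all), and at 12 h 8 fell and 4 rose (9.57% and 8.72%, 18.3% in all). At 24 h EXLA1 was the single call, higher, where 1.13% of all genes were higher and 0.419% lower (1.55% in all). That count was 10 with controls of both days, 3 without atm-1 HZE 24 h replicate 2 or the second day 2 control, and 2 when the first day 2 control was left out. After gamma in atm-1, 8 genes fell and 6 rose at 1.5 h, against 2.64% and 2.96% (5.60% in all), and the total of 14 became 8 when gamma 1.5 h replicate 2 was left out and 9 when the first day 1 control was. The counts were 10 and 10 at 6 h, against 15.4% and 7.54% (23.0% in all), and the 6 h count fell from 20 to 9 when atm-1 gamma 6 h replicate 1 or the first day 1 control was left out, and to 11 when the second day 1 control was. They were 8 lower and 4 higher at 12 h, against 12.1% and 11.4% (23.5% in all), and 10 and 8 at 24 h, against 14.8% and 12.8% (27.5% in all).

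**Figure D1:**
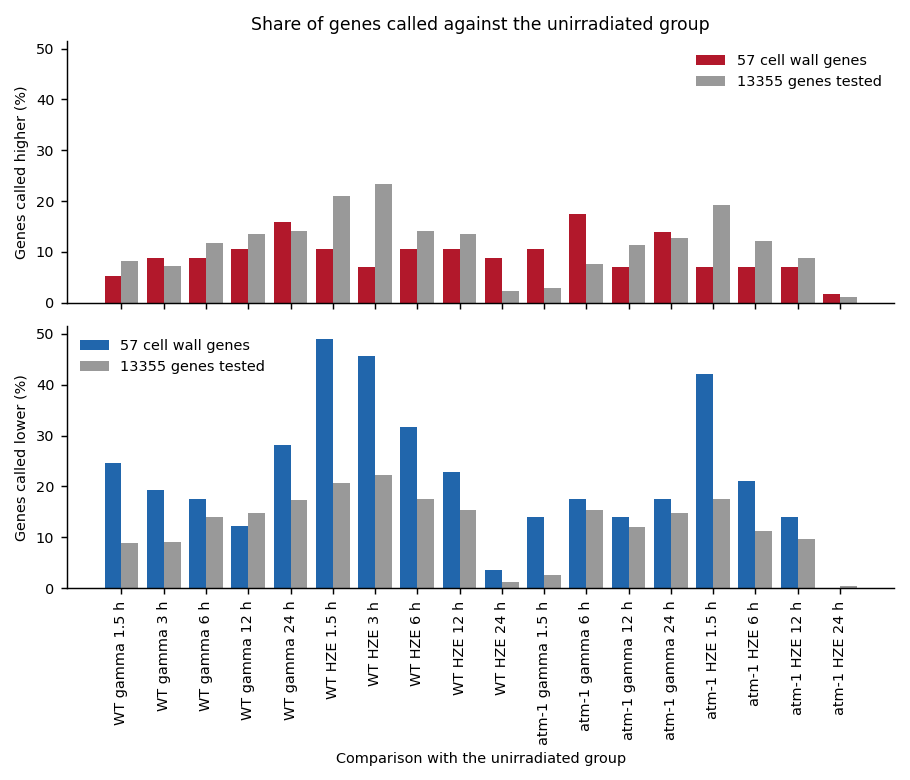
Share of genes called higher (upper panel) and lower (lower panel) than the unirradiated group, in percent, for the 57 cell wall genes (coloured bars) and all 13355 genes tested (grey bars), in each of 18 comparisons. The lower shares of the cell wall genes are tallest at HZE 1.5 h, where 28 of 57 fell in WT and 24 of 57 in atm-1.

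Of the 57 genes, 52 (91.2%) were called in at least 1 of the 18 comparisons with controls, beside 72.6% of all genes, and 15 (26.3%) in 9 or more, beside 18.6%. The 5 that were never called were XTH26, TBL20, TBL23, CSLA01 and CSLC12, of which all but TBL23 had mean levels under 5. TBL35 and TBL45 were called 12 times each and lower every time, and CSLA03 was called lower 16 times. CSLD2 was called 8 times, each time higher. The comparisons up to 12 h in a genotype share the same 2 day 1 control arrays. Repeated calls of a gene are therefore not independent. The atm-1 day 1 controls were the highest group of TBL45 and CSLA03, at means of 9.62 and 8.56, and the lowest of CSLD2, at 7.25. The heatmap of changes shows that members of 1 family did not move as a block. Over the 22 group means, Pearson's r between pairs of TBL genes ran from -0.75 to 0.83 (median 0.14 over 231 pairs), and between pairs of EXPA genes from -0.71 to 0.90 (median 0.12 over 45 pairs). These correlations share arrays and group structure and describe likeness only.

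**Figure D2:**
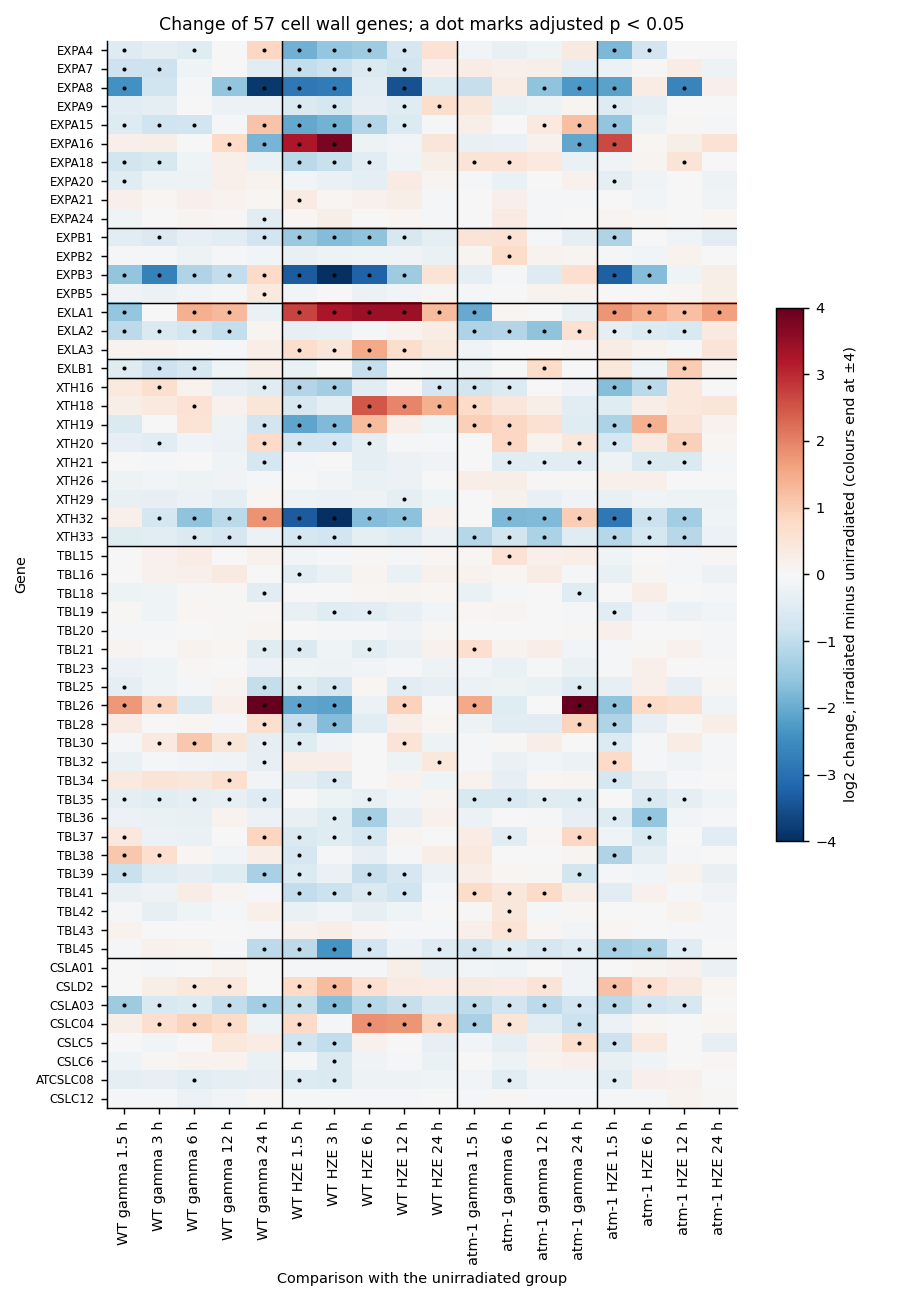
Log2 change of each of the 57 genes (rows, ordered by family between the black lines) against its unirradiated group in 18 comparisons (columns). Red is higher and blue lower, colours end at ±4, and a dot marks a call; EXPB3, XTH32 and EXPA8 carry the deepest falls after HZE, and TBL26 the largest rises, at gamma 24 h in both genotypes.

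Among the alpha-expansins, 6 of 10 fell and none rose 1.5 h after gamma in WT, where 8.84% of all genes were lower and 8.30% higher. Of those 6 calls, those of EXPA8 and EXPA18 held when any 1 array was left out. At HZE 1.5 h 6 fell and 2 rose, against 20.6% and 20.9%. EXPA8 led both. In the WT day 1 controls it read 9.91 and 10.17, at gamma 1.5 h 7.70 and 7.51, and at HZE 1.5 h 7.14 and 7.24. The irradiated arrays lay below all control arrays, and the falls were log2 -2.43 (SE 0.43, adjusted p 9.48e-05) and -2.85 (adjusted p 1.70e-06). The level was back near the control at gamma 6 h (9.94 and 9.95) and HZE 6 h (9.30 and 9.88), neither of them called. A second fall followed. At WT gamma 24 h EXPA8 read 5.68 and 5.70, its lowest group, against 9.58 and 9.51 in day 2 controls, a change of log2 -3.85 (SE 0.43, adjusted p 1.73e-08). At WT HZE 12 h it read 7.34 and 5.76, a wide gap between replicates, with a change of -3.48 (adjusted p 1.22e-07). In atm-1 it fell by 2.29 at gamma 24 h, by 2.64 at HZE 12 h and by 2.13 at HZE 1.5 h on the log2 scale. At gamma 1.5 h atm-1 read 9.20 and 9.21 against 10.21 and 10.06 in its control, which was not called (log2 -0.93, adjusted p 0.273). The difference between the genotypes in that change was not called either (log2 -1.50, SE 0.61, adjusted p 0.173), although the irradiated arrays compared directly were lower in WT by log2 -1.60 (SE 0.43, adjusted p 0.0147). The WT gamma 12 h fall of -1.59 and the atm-1 fall of -1.60 ended without replicate 1 of WT gamma 12 h and of atm-1 gamma 12 h, respectively.

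EXPA16 moved in the other direction from most alpha-expansins after HZE. It read 4.65 and 4.22 in WT day 1 controls, 7.80 and 7.54 at HZE 1.5 h and 8.35 and 8.09 at HZE 3 h, and then 3.96 and 4.52 at HZE 6 h. The rises were log2 3.23 (SE 0.19, adjusted p 1.16e-14) and 3.79 (adjusted p 1.50e-16). In atm-1 the HZE 1.5 h arrays read 7.60 and 7.55 against 4.95 and 4.95, a rise of log2 2.63. At gamma 6 h, sampled at nearly the same clock time as HZE 1.5 h, WT read 4.57 and 4.35. EXPA16 also differed between control days: day 2 controls read 6.41 and 6.41 in WT, so the fall of log2 -1.87 at WT gamma 24 h (4.47 and 4.60) and of -2.07 in atm-1 is measured from that higher level. Against controls of both days those values were -0.88 and -1.26. The atm-1 gamma 24 h arrays (4.40 and 4.57) lay below the atm-1 day 1 controls, while those of WT lay within the range of the WT day 1 controls.

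EXPA15 and EXPA4 fell early after HZE, and EXPA15 stood above controls 24 h after gamma. EXPA15 read 7.72 and 7.76 in WT day 1 controls, 5.67 and 5.75 at HZE 1.5 h, and 8.07 and 8.31 at gamma 24 h, where day 2 controls read 6.93 and 7.17. These changes were log2 -2.04 (SE 0.13, adjusted p 9.87e-14) and 1.13 (adjusted p 5.39e-08), and in atm-1 they were -1.57 and 1.21. EXPA4 read 8.58 and 8.82 in WT day 1 controls and 6.74 and 6.85 at HZE 1.5 h, a fall of log2 -1.91 (SE 0.18, adjusted p 2.64e-10), and fell by 1.81 in atm-1. The rise of EXPA4 at WT gamma 24 h, log2 0.84, was its only call higher and ended with controls of both days. The WT gamma 24 h mean was 8.58, beside 8.70 in day 1 controls. In atm-1 the gamma 24 h mean of 8.62 was not called against 8.26 in day 2 controls. EXPA7 and EXPA18, expansins known from root hairs, were the most alike EXPA pair (r 0.90 over 22 group means). At WT gamma 1.5 h they fell by log2 0.83 and 0.73 and at WT HZE 1.5 h by 1.00 and 1.07. In atm-1 at HZE 1.5 h neither was called. The HZE 1.5 h means were alike in WT and atm-1, at 5.19 and 5.15 for EXPA7 and 4.63 and 4.81 for EXPA18. The day 1 control means differed, at 6.19 in WT and 5.40 in atm-1 for EXPA7 and 5.71 and 4.96 for EXPA18. EXPA9 fell by 0.58 and 0.71 at WT HZE 1.5 and 3 h. EXPA20 was called in 2 comparisons, lower by 0.48 at WT gamma 1.5 h and by 0.39 at atm-1 HZE 1.5 h. EXPA21 and EXPA24, at mean levels of 3.78 and 3.81, were called once each, with changes of 0.34 and -0.43.

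Of the 4 beta-expansins, EXPB3 and EXPB1 fell after HZE while EXPB2 and EXPB5 were called once each. EXPB3 showed the second-deepest fall of any gene described here. It read 8.68 and 8.59 in WT day 1 controls, 5.25 and 5.36 at HZE 1.5 h, 4.75 and 4.49 at HZE 3 h, 5.48 and 5.29 at HZE 6 h and 6.99 and 7.46 at HZE 12 h. No HZE array up to 12 h overlapped the day 1 controls, and the changes were log2 -3.33, -4.02, -3.25 and -1.41 (SE 0.26, adjusted p 2.79e-14 at 3 h). The gamma 1.5 h arrays read 7.20 and 6.91 (log2 -1.58) and those of 3 h 6.59 and 5.26 (log2 -2.71), while the 6 h arrays read 7.28 and 7.62 (log2 -1.19). In atm-1 the gamma arrays at 1.5 h read 8.16 and 8.30 against controls of 8.55 and 8.68, which was not called (log2 -0.38, adjusted p 0.554). The fall at HZE 1.5 h in atm-1 was log2 -3.26 (5.63 and 5.08), and it did not differ detectably from that in WT (difference log2 -0.07, 95% interval -0.82 to 0.67, adjusted p 0.963). By 12 h after HZE atm-1 read 8.57 and 8.30, near its controls. Day 2 controls of EXPB3 were lower than day 1 controls by log2 -1.17, and with controls of both days the WT changes at gamma 1.5, 6 and 12 h became -0.90, -0.50 and -0.32, the last 2 no longer called.

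EXPB1 read 7.73 and 7.65 in WT day 1 controls, 6.06 and 6.37 at HZE 1.5 h, 6.10 and 5.79 at HZE 3 h and 6.00 and 6.18 at HZE 6 h. These were falls of log2 1.48, 1.75 and 1.61 (SE 0.19, adjusted p 3.24e-09 at 3 h). In atm-1 it was lower at HZE 1.5 h by log2 -1.21 (5.82 and 5.58 against 6.95 and 6.87) and stood at control level at HZE 6 h (7.07 and 6.68). EXPB5 rose by log2 0.39 at WT gamma 24 h, from 3.74 and 3.73 to 4.10 and 4.15.

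EXLA1, an expansin-like gene, was higher at all 5 times after HZE in WT and lower 1.5 h after gamma. It read 6.43 and 6.56 in WT day 1 controls. At gamma 1.5 h it read 4.99 and 4.87, a fall of log2 -1.56 (SE 0.25, adjusted p 1.72e-05), and in atm-1 it fell by 2.01, from 7.16 and 7.44 to 5.16 and 5.43. At gamma 6 h WT read 7.80 and 8.04, a rise of log2 1.43, or 0.94 with controls of both days. The WT HZE arrays read 9.25 and 9.16 (1.5 h), 9.59 and 9.94 (3 h), 9.92 and 9.94 (6 h), then 9.69 and 10.13 (12 h). All these arrays lay above every control, with rises of log2 2.71, 3.27, 3.44 and 3.41 (adjusted p 1.45e-12 at 6 h). At WT HZE 24 h it was still higher by log2 1.26 (9.00 and 8.42 against 7.78 and 7.13), a call that ended without HZE 24 h replicate 1 or control day 2 replicate 2. In atm-1 it rose by log2 1.75, 1.49, 1.21 and 1.64 at 1.5, 6, 12 and 24 h after HZE. The difference between the genotypes was called at HZE 6 and 12 h, where the WT rise was the larger, and not at 1.5 h (log2 0.96, adjusted p 0.169) or 24 h (log2 -0.39, adjusted p 0.908).

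EXLA3, at a mean level of 3.99, is placed by the gene table with 1 gene between it and EXLA1. They were the most alike EXLA pair (r 0.67 over 22 group means), although EXLA1 alone was also called after gamma and in atm-1. EXLA3 read 3.66 and 3.86 in WT day 1 controls and 5.49 and 5.07 at HZE 6 h, a rise of log2 1.52 (SE 0.17, adjusted p 1.03e-08). It rose by 0.70, 0.49 and 0.69 at HZE 1.5, 3 and 12 h and was not called in atm-1 or after gamma. EXLA2 behaved differently, lower after gamma in WT by log2 1.04, 0.58, 0.73 and 0.95 at 1.5, 3, 6 and 12 h, with no call after HZE in WT. The day 2 controls of EXLA2 lay log2 -1.05 below those of day 1, and the smaller values move with the day chosen. In atm-1 its changes of 0.62 at gamma 24 h and of -0.38, -0.56 and -0.61 at HZE 1.5, 6 and 12 h became -0.10, 0.35, 0.17 and 0.12 with controls of both days. EXLB1 fell by log2 0.92 at WT HZE 6 h (4.86 and 4.74 against 5.90 and 5.53) and by 0.84 at WT gamma 3 h. In atm-1 it rose by 0.72 at gamma 12 h and by 1.02 at HZE 12 h, where it read 6.97 and 6.78 against 5.88 and 5.82. The EXLB1 call at WT gamma 3 h ended without gamma 3 h replicate 2 (5.19 and 4.56).

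**Figure D3:**
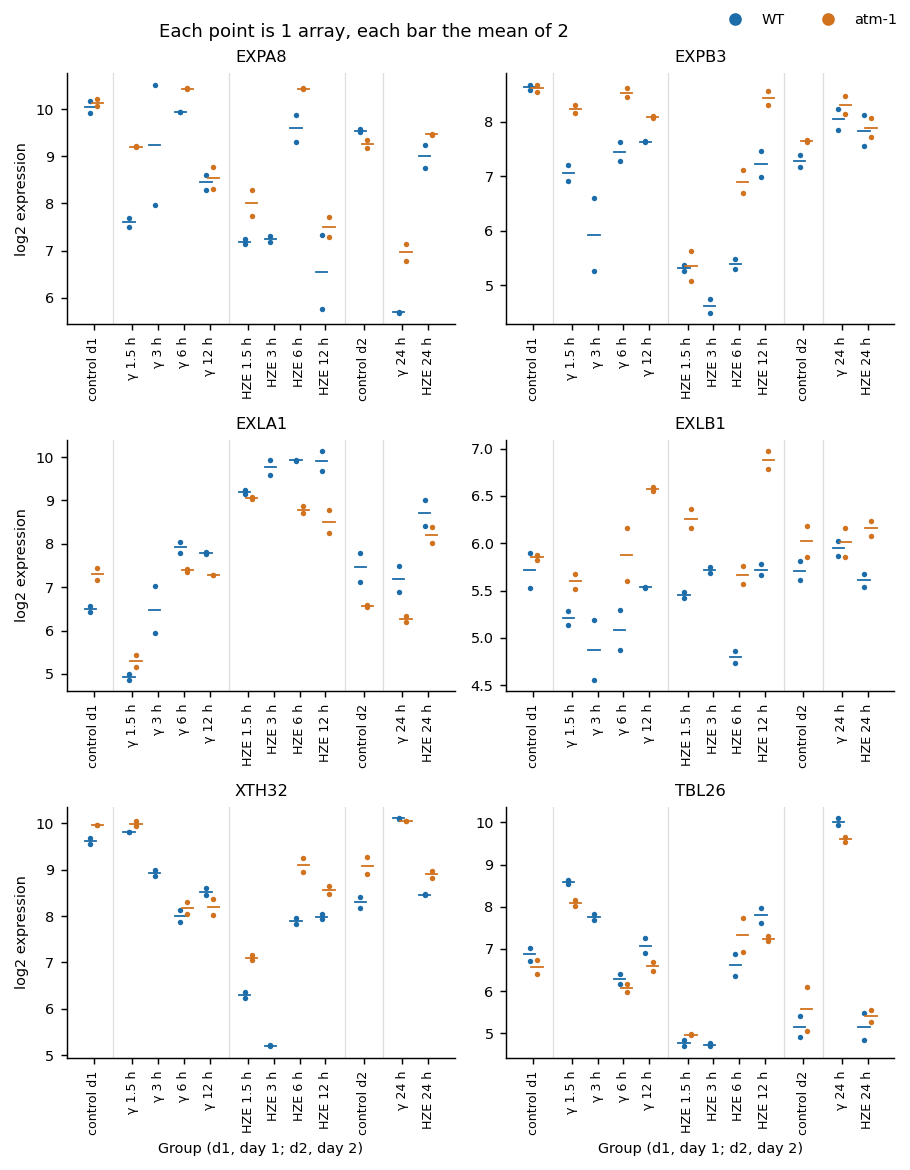
Log2 expression on each array (points) and group means (bars) of EXPA8, EXPB3, EXLA1, EXLB1, XTH32 and TBL26, the genes with the widest range of group means in their families, in WT (blue) and atm-1 (orange). Panels have separate vertical axes; γ is gamma, and groups without a WT or atm-1 point were not sampled. EXLA1 rises in all HZE groups, while EXPB3 and XTH32 are lowest at HZE 3 h, at means of 4.62 and 5.21.

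Of the 9 XTH genes, 6 fell and none rose 1.5 h after HZE in WT, against 20.6% and 20.9% of all genes, and none was called 1.5 h after gamma, against 17.1%. XTH32, which belongs by sequence to the XTH group known for xyloglucan hydrolases, had the deepest fall of all 57 genes. It read 9.55 and 9.68 in WT day 1 controls, 6.36 and 6.23 at HZE 1.5 h, 5.23 and 5.19 at HZE 3 h, 7.96 and 7.83 at HZE 6 h and 8.05 and 7.93 at HZE 12 h. The changes were log2 -3.32, -4.41, -1.72 and -1.63 (SE 0.13, adjusted p 3.22e-22 at 3 h), with no overlap with the day 1 controls. Day 2 controls were lower, at 8.42 and 8.18, and against controls of both days the values were -2.66, -3.75, -1.06 and -0.97. Its gamma arrays read 9.82 and 9.81 (1.5 h), then 7.88 and 8.14 (6 h, log2 -1.61, or -0.95 against both days), then 10.10 and 10.11 (24 h), its highest group. That last value was log2 1.81 (adjusted p 1.74e-12) above day 2 controls and 1.15 above controls of both days. In atm-1 the changes were -2.86 at HZE 1.5 h, -1.79 at gamma 6 h and 0.97 at gamma 24 h.

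XTH18 and XTH19 are direct neighbours in the gene table and had the highest likeness among XTH pairs (r 0.69 over 22 group means), yet differed in atm-1. Both are known from roots. XTH18 read 6.84 and 6.54 in WT day 1 controls, 5.96 and 6.14 at HZE 1.5 h, 9.30 and 9.04 at HZE 6 h, 8.46 and 8.83 at HZE 12 h and 8.60 and 8.24 at HZE 24 h. The later arrays lay above every control, with rises of log2 2.48, 1.96 and 1.43 (SE 0.21, adjusted p 6.32e-11 at 6 h). The corresponding atm-1 arrays read 6.87 and 6.54, 6.80 and 6.93, and 7.13 and 7.42, with no call. XTH19 read 7.45 and 7.64 in WT day 1 controls, 5.17 and 5.70 at HZE 1.5 h and 8.83 and 8.80 at HZE 6 h, a fall of log2 2.11 followed by a rise of 1.27 (SE 0.25). In atm-1 it rose by 1.42 at HZE 6 h, to 8.19 and 8.34 from 6.96 and 6.74.

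XTH16 fell by log2 1.17 and 1.39 at WT HZE 1.5 and 3 h and by 1.71 and 1.07 at atm-1 HZE 1.5 and 6 h. XTH20 fell by 0.74 and 0.78 at WT HZE 1.5 and 3 h and rose by 0.76 at WT gamma 24 h. XTH33, at a mean level of 4.75, was called 10 times, each time lower, by 0.58 to 0.78 in WT and by 0.71 to 1.28 in atm-1. Its atm-1 day 1 controls, shared by all atm-1 comparisons up to 12 h, were its highest group, at 5.63 and 5.79. The atm-1 day 2 controls read 4.77 and 5.15. Averaged over genotypes, day 2 controls of XTH33 differed from those of day 1 by log2 -0.50. At atm-1 gamma 6 h XTH33 read 5.36 and 4.57, and the call ended without replicate 2 or without atm-1 control day 1 replicate 2. XTH21 fell by log2 0.71 at WT gamma 24 h and by 0.43 to 0.59 in 5 atm-1 comparisons, and XTH29 fell by 0.40 at WT HZE 12 h.

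The 22 TBL genes held the largest rise in these families. TBL26, a member of the TBL group known to acetylate mannans, read 5.41 and 4.91 in WT day 2 controls and 9.94 and 10.10 at gamma 24 h, a rise of log2 4.86 (SE 0.25, adjusted p 3.20e-15). In atm-1 it read 6.10 and 5.05 in controls and 9.54 and 9.66 at gamma 24 h, a rise of 4.02. The gamma 24 h arrays also lay above the day 1 controls, at 6.71 and 7.03 in WT. At gamma 1.5 h it was higher too, at 8.63 and 8.55 in WT (log2 1.72, adjusted p 5.33e-06) and 8.15 and 8.01 in atm-1 (log2 1.51). In the first hours after HZE it was lower: WT arrays of 1.5 h read 4.69 and 4.84 and those of 3 h 4.69 and 4.78, changes of log2 -2.10 and -2.13, or -1.25 and -1.28 with controls of both days. In atm-1 it fell by 1.60 at HZE 1.5 h. Later it was called higher at WT HZE 12 h, at 7.61 and 7.98 (log2 0.93, or 1.78 with controls of both days), and at atm-1 HZE 6 h, at 7.73 and 6.94 (log2 0.77, or 1.26). The first of these calls ended without WT HZE 12 h replicate 2 or WT control day 1 replicate 1, and the second without the first replicate of atm-1 HZE 6 h or of its controls. At HZE 24 h WT arrays (5.48 and 4.84) lay near day 2 controls. TBL25, of the same acetyltransferase group, fell by log2 0.96 at WT gamma 24 h, and TBL23, the third measured member of that group, was never called.

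Of the 22 TBL genes, TBL26 included, 11 fell and none rose at WT HZE 1.5 h, against 20.6% and 20.9% of all genes. At WT gamma 24 h 8 fell and 3 rose, against 17.4% and 14.1%. TBL45 read 8.87 and 9.16 in WT day 1 controls and 6.84 and 6.49 at HZE 3 h, a fall of log2 2.35 (SE 0.14, adjusted p 1.11e-14). TBL28, one of the TBL proteins known to acetylate xylan, read 5.97 and 6.30 in those controls and 4.60 and 4.20 at HZE 3 h, a fall of 1.74. Its neighbour TBL30, also a xylan acetyltransferase, instead rose at WT gamma 6 h, to 6.53 and 6.57 from 5.52 and 5.44 (log2 1.07, adjusted p 1.36e-07), while the atm-1 arrays read 5.38 and 5.86. TBL36 was lowest at HZE 6 h in both genotypes, with falls of log2 1.32 in WT (5.30 and 5.37) and 1.56 in atm-1 (5.49 and 5.57). TBL38 rose at WT gamma 1.5 h, to 9.25 and 8.80 from 8.09 and 7.81 (log2 1.07, adjusted p 1.29e-05), and fell by 0.68 at WT HZE 1.5 h, with a change of -1.20 in atm-1. At 24 h after gamma, TBL39 fell by 1.30 in WT and 0.72 in atm-1, whereas TBL37 rose by 0.86 and 0.82.

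The 8 CSL genes included 1 that was lower in nearly all comparisons. CSLC04 and CSLD2 were each called higher in 8 of the 18 comparisons with controls, and CSLC04 was called lower in 2. CSLA03, of the family that makes mannan backbones, read 8.49 and 8.47 in WT day 1 controls, 7.19 and 6.91 at gamma 1.5 h and 6.42 and 7.13 at HZE 3 h. Those falls were log2 1.43 (SE 0.18, adjusted p 6.10e-07) and 1.71 (adjusted p 2.05e-09), and it was called lower in every comparison except HZE 24 h. CSLC04, of the family that makes the xyloglucan backbone, read 6.34 and 6.15 in WT day 1 controls, 8.18 and 7.99 at HZE 6 h and 7.81 and 8.17 at HZE 12 h. The rises were log2 1.84 (adjusted p 1.81e-10) and 1.75 (adjusted p 7.08e-10). In atm-1 the day 1 controls were higher, at 7.10 and 7.36, and gamma 1.5 h read 5.73 and 6.13, a fall of 1.30. CSLC04 was not called after HZE in atm-1, with changes of -0.23, 0.08, -0.02 and 0.09 at 1.5, 6, 12 and 24 h. The smaller WT rises of CSLC04, 0.67 to 0.88 at gamma 3, 6 and 12 h and HZE 1.5 h, ended with controls of both days. CSLD2, known from tip growth of root hairs, read 7.45 and 7.38 in WT day 1 controls and 8.44 and 8.90 at HZE 3 h, a rise of log2 1.26 (adjusted p 5.46e-08), and rose by 1.18 at atm-1 HZE 1.5 h. CSLC5 fell by 0.79 and 0.99 at WT HZE 1.5 and 3 h, and CSLC6 fell by 0.59 at WT HZE 3 h.

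HZE and gamma groups taken at nearly the same clock time were compared directly, although dose and hours since exposure differ. HZE 1.5 h was set against gamma 6 h (2:39 pm and 2:55 pm), and HZE 6 h against gamma 12 h (7:24 pm and 8:40 pm). In the first pair, 26 genes were lower after HZE and 6 higher in WT, against 19.0% and 20.4% of all genes (39.4% in all). In atm-1 27 were lower and 6 higher, against 16.6% and 23.2% (39.9% in all). The member medians were log2 -0.22 in WT and -0.39 in atm-1, beside 0.03 and 0.01 over all genes. EXPA8 (-2.76), XTH19 (-2.66) and EXPB3 (-2.14) led the lower genes in WT, and EXPA16 (3.21) and EXLA1 (1.29) the higher ones. In the second pair, 18 were lower and 6 higher in WT, against 12.0% and 10.8% (22.8% in all), and 9 and 8 in atm-1, against 9.40% and 10.2% (19.6% in all). XTH18 (2.31), EXLA1 (2.14) and EXLA3 (1.60) led the higher genes in WT, and EXPB3 (-2.25) and TBL36 (-1.46) the lower ones.

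The WT and atm-1 values of these contrasts come from different arrays. In the first pair 26 genes were called in both genotypes, 21 lower and 5 higher in each, which is 81.2% of the WT calls, beside 74.9% over all genes. In the second pair 13 were called in both, 12 of them in the same direction, which are 12 of the 24 WT calls, beside 50.9% of WT calls over all genes. XTH32 was the exception, lower in WT (log2 -0.63) and higher in atm-1 (0.91). The correlation over the 57 genes was 0.89 and 0.66, and over all genes 0.88 and 0.66.

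**Figure D4:**
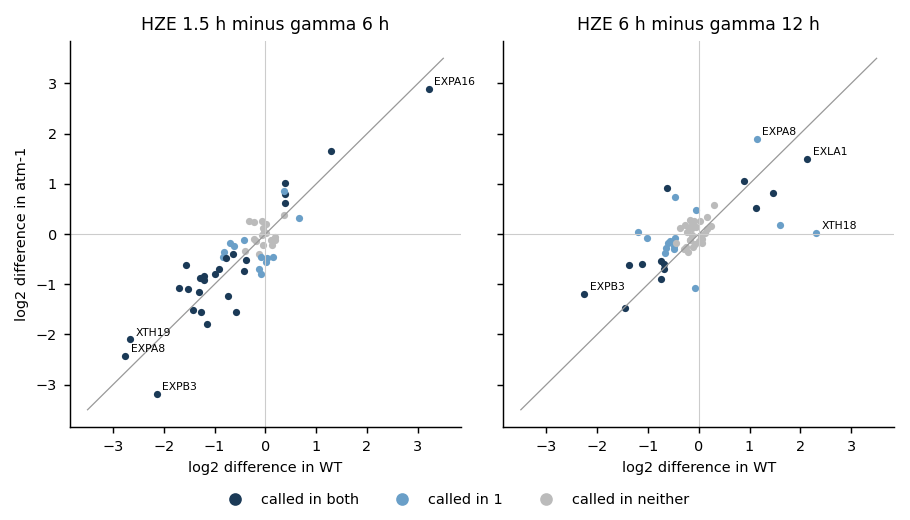
Log2 difference, HZE minus gamma at nearly matched clock time, of each of the 57 genes in WT (horizontal) and atm-1 (vertical), for HZE 1.5 h minus gamma 6 h and HZE 6 h minus gamma 12 h. EXPA16 lies far up and right in the first panel (3.21 and 2.89), and EXPB3 and EXPA8 far down and left.

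Whether a change depended on ATM was tested as the WT change minus the atm-1 change, at the same clock time. At HZE 6 h, 4 genes had a higher and 5 a lower WT change, against 3.29% and 2.61% of all genes (5.90% in all). XTH18 led, at log2 2.22 (SE 0.30, adjusted p 5.62e-06): its WT arrays read 9.30 and 9.04 and its atm-1 arrays 6.87 and 6.54. EXLA1 followed at 1.95, CSLC04 at 1.76 and EXLA3 at 1.38, with EXLA3 at 5.49 and 5.07 in WT and 4.02 and 3.85 in atm-1. EXPB1 (-1.57), EXPB3 (-1.54) and EXPA15 (-0.97) had deeper falls in WT. At HZE 12 h 4 were higher and 3 lower, against 2.71% and 1.98% (4.69% in all), led by EXLA1 (2.20), CSLC04 (1.77), XTH18 (1.54) and EXPB3 (-1.23). XTH20 had values of -1.02 at HZE 12 h and -0.99 at gamma 6 h. There it read 5.40 and 5.68, and 5.61 and 5.25, in atm-1, and 4.40 and 4.72, and 4.55 and 4.43, in WT.

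At gamma 1.5 h 3 genes had a higher and 9 a lower WT change, against 2.40% and 3.24% of all genes (5.65% in all). They were led by XTH19 (-1.52), EXPA18 (-1.26), EXPB3 (-1.20), CSLC04 (1.54) and XTH16 (1.14). The XTH19 call ended without WT gamma 1.5 h replicate 2, whose array read 6.45 beside 7.47, and the count of 12 fell to 5 without that replicate. At gamma 6 h 2 were higher and 4 lower, against 4.04% and 2.14% (6.18% in all), with EXLA1 at 1.34 and TBL30 at 1.02 above. EXPB2 (-0.91) there ended without atm-1 gamma 6 h replicate 1, while the count rose from 6 to 14 without replicate 2 and fell to 3 without WT gamma 6 h replicate 1. The remaining times gave few calls: 2 higher at gamma 12 h (0.449% of all genes higher, 0.831% lower, 1.28% in all), 1 higher at gamma 24 h (0.112%, 0.0899%, 0.202%), 1 higher and 1 lower at HZE 1.5 h (1.82%, 0.861%, 2.68%), and none at HZE 24 h (0.0674%, 0.0599%, 0.127%). None of the calls at gamma 12 h, gamma 24 h or HZE 1.5 h held when any 1 array was left out.

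These differences include any difference between the unirradiated genotypes. In day 1 controls WT minus atm-1 was called for CSLC04 (log2 -0.98), EXPB1 (0.79), EXPA18 (0.75), TBL41 (0.62) and TBL45 (-0.61), where 2.02% of all genes were called. The irradiated arrays of the genotypes were therefore also compared directly, a comparison added after the data had been seen. Of the 39 ATM calls, 25 were called in the same direction and 14 were not called. XTH18 (2.46 at HZE 6 h, 1.78 at 12 h), EXLA1 (1.15 at HZE 6 h), EXLA3 (1.35 at 6 h), XTH20 (-0.98 at 12 h) and TBL30 (0.94 at gamma 6 h) were among the 25. CSLC04 was 0.78 at HZE 6 h and 0.78 at 12 h, called but less than its ATM values of 1.76 and 1.77. EXPB1 (-0.16) and EXPA7 (-0.33) at gamma 1.5 h and CSLC04 (0.00) at HZE 1.5 h were among the 14. XTH32 was lower in WT at HZE 1.5, 6 and 12 h by log2 -0.80, -1.20 and -0.58, and also in day 2 controls (-0.79).

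**Figure D5:**
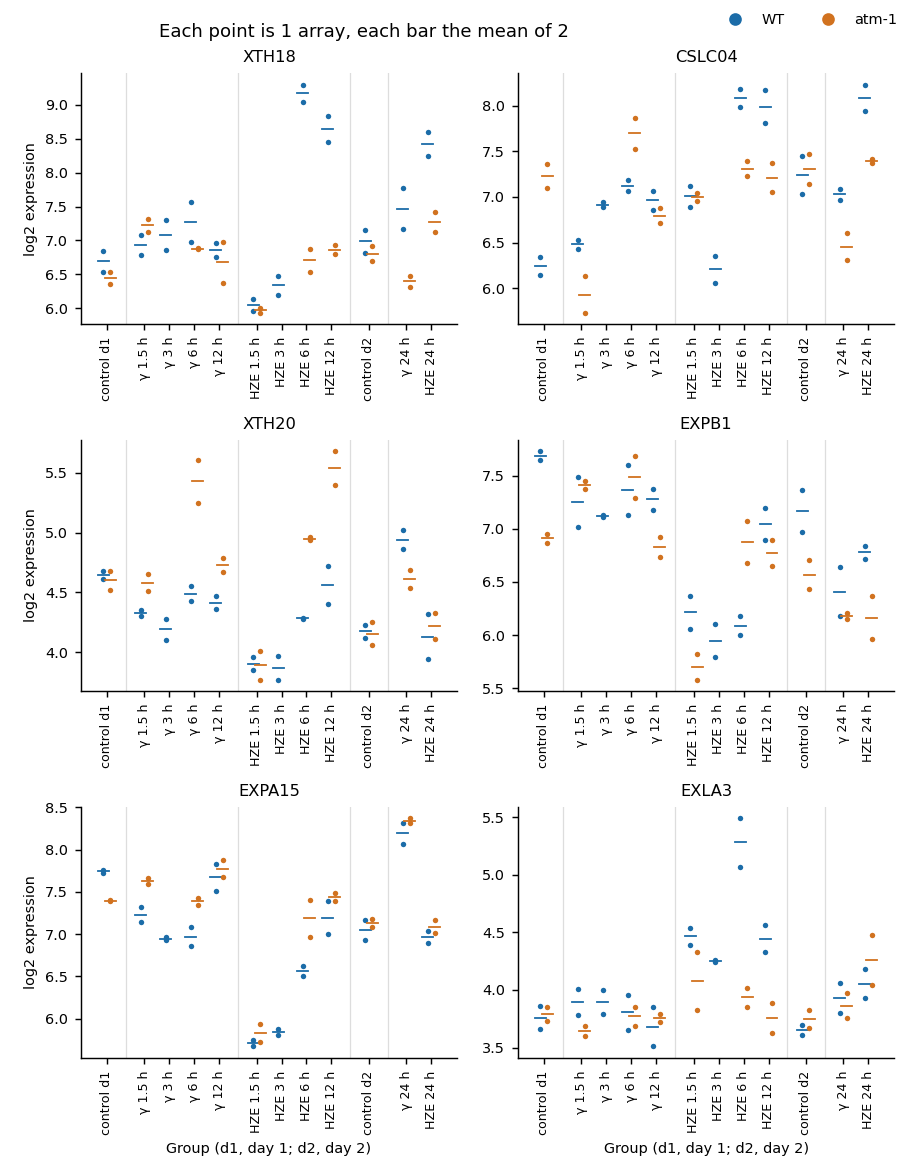
Log2 expression on each array (points) and group means (bars) of XTH18, CSLC04, XTH20, EXPB1, EXPA15 and EXLA3 in WT (blue) and atm-1 (orange); panels have separate vertical axes. XTH18 is higher in WT than in atm-1 at HZE 6 and 12 h, and the day 1 controls of CSLC04 and EXPB1 differ between genotypes.

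Without irradiation, atm-1 differed from WT, averaged over both days, in 6 of the 57 genes, 3 higher and 3 lower, against 0.449% and 0.839% of all genes (1.29% in all). These were XTH32 (0.57), CSLC04 (0.52), TBL37 (0.44), EXPB1 (-0.69), EXPA18 (-0.54) and TBL39 (-0.53), and 1 of the 6 calls held when any 1 array was left out. Between day 2 and day 1, 7 genes were higher and 12 lower, against 14.7% and 12.8% (27.5% in all). EXPA16 (1.79) led the higher genes, and TBL26 (-1.35), EXPB3 (-1.17), XTH32 (-1.10) and EXLA2 (-1.05) the lower ones.

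Genes of related pathways were followed from fixed lists. Of 16 hormone response genes measured, 2 rose and 5 fell at WT gamma 1.5 h, where 8.30% of all genes were higher and 8.84% lower. At WT HZE 1.5 h 8 rose and 3 fell, against 20.9% and 20.6%. IAA29, an auxin response regulator, rose by log2 1.64 and 2.50 at those times, and by 3.07 at WT HZE 6 h. In atm-1 IAA29 was not called at gamma 1.5 h (-0.47) or HZE 1.5 h (0.13), and rose by 2.21 at HZE 6 h. At gamma 24 h it was lower, with changes of -1.74 in WT and -1.40 in atm-1. At WT gamma 1.5 h and WT HZE 1.5 h GH3.17, an auxin-conjugating enzyme, fell by 1.31 and 1.50. GID1A, a gibberellin receptor, changed there by -0.69 and 1.46. Of 6 secondary wall genes FRA3 rose most, by 1.08 and 1.43 at WT HZE 1.5 and 3 h. FRA3 entered through its symbol prefix and was not named in the list as first fixed. At gamma 24 h FRA3 was lower, with changes of -0.68 in WT and -0.50 in atm-1. The hormone and secondary wall lists matched by symbol. CCR2 may be another gene than the lignin enzyme of that name. HAT3.1, counted among the rises at WT HZE 1.5 h (0.39), may not be a hormone response gene. COB, needed for oriented cellulose deposition, fell by 0.48 at WT HZE 1.5 h and rose by 0.58 at WT HZE 6 h and by 0.55 and 0.79 at WT gamma 6 and 12 h. Neither of the 2 pectin genes, GAUT15 and PME61, was called at WT gamma 1.5 h, HZE 1.5 h or HZE 3 h. No gene of the callose list was measured, and the single xylem gene, GUT2, fell by 0.62 at WT HZE 1.5 h and rose by 0.55, 0.48 and 0.57 at WT gamma 3, 6 and 12 h.

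Of 3 mitosis markers measured, all Aurora kinases, AUR1 and AUR2 fell at WT gamma 1.5 h (log2 -1.02 and -1.42) and in WT at every HZE time. In atm-1 both fell at gamma 1.5 h (-0.61 and -1.04) and 6 h (-1.17 and -1.79). They also fell in atm-1 at HZE 1.5 h (-0.56 and -1.12) and 6 h (-2.10 and -2.36). At 12 h in atm-1 AUR2 alone was called lower after either radiation, and at 24 h neither was called. AUR3 was not called at WT gamma 1.5 h (-0.38), WT HZE 1.5 and 3 h (0.42 and 0.24) or atm-1 HZE 1.5 h (0.49), and fell at WT HZE 6 and 12 h (-0.65 and -0.78) and at WT gamma 3, 6 and 12 h (-0.68, -0.71 and -0.87). The summed level of the 3 was 8.43 and 8.09 in WT controls and 6.64 to 7.77 in irradiated WT groups. It was 8.57 and 8.33 in atm-1 controls and 6.76 to 8.45 in irradiated atm-1 groups. The part of dividing cells in the changes of the wall genes was not tested.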

How the data were processed

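Gene expression was measured on 44 arrays, 2 in each of 22 groups. The deposited values are log2 expression; GCOS 1.2, RMA and affy are named in the submitters' processing notes, and further settings are not given in the sources used here. RMA shares its scale across arrays, so a change is relative to the other genes. Precision is set by having 2 arrays a group.

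The table held 22810 probe sets, 64 of them array controls, which were not used. Of the rest, 13513 were annotated to 1 gene, 503 to several and 8730 to none in the table used. Symbols came from the RefSeq gene table (TAIR10.1) for 13436, and 77 kept the annotation's name. For the 147 genes with several probe sets the one with the highest mean was used, giving 13355 genes. A group-means model of all 44 arrays was fitted with limma 3.58.1 in R 4.3.3 (22 residual and 7.82 prior degrees of freedom), and p-values were adjusted by Benjamini-Hochberg over all genes in each of 32 comparisons; the procedure was tested on simulated data. Irradiated groups were set against day 1 controls up to 12 h and day 2 controls at 24 h.

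The genes and lists were chosen with earlier results of these data known. Named genes were the called members with the largest absolute change (up to 6 per direction at 1.5 and 24 h, up to 4 elsewhere), the widest-ranging member of each family, and up to 3 genes per related list; others are named to account for all members. Alternatives were cyclic loess, leaving out the dimmer genes (below the median of mean levels), a trended prior, a replicate block, leaving out each array, and controls of both days; the direct comparison of genotypes was added after the data had been seen. ATM itself had no probe set annotated to it alone, so the genotype labels were not checked on it. A comparison of promoter or protein sequences was not run.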

Additional observations from a re-analysis of the deposited data

Results flagged for a closer look

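The results listed here are those in which the WT change and the atm-1 change differed by the test of the difference itself (WT change minus atm-1 change, log2, limma adjusted p under 0.05). There were 39, in 21 genes.

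At gamma 1.5 h the differences were -1.52 for XTH19, -1.26 for EXPA18, -1.20 for EXPB3, -1.16 for TBL39, -1.12 for EXPA7, -1.04 for TBL41, -0.95 for EXPB1, -0.91 for EXPA9 and -0.74 for EXPA15. They were 0.67 for TBL45, 1.14 for XTH16 and 1.54 for CSLC04. Of these 12 calls, those of EXPA18, XTH16 and CSLC04 held when any 1 array was left out.

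At gamma 6 h they were -0.99 for XTH20, -0.91 for EXPB1, -0.91 for EXPB2, -0.76 for EXPA15, 1.02 for TBL30 and 1.34 for EXLA1, and the calls of XTH20 and TBL30 held when any 1 array was left out. At gamma 12 h they were 0.70 for XTH32 and 1.16 for CSLC04, and at gamma 24 h 0.84 for XTH32.

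At HZE 1.5 h the differences were -0.93 for EXPA18 and 0.99 for CSLC04. At HZE 6 h they were -1.57 for EXPB1, -1.54 for EXPB3, -0.97 for EXPA15, -0.85 for XTH32, -0.71 for XTH20, 1.38 for EXLA3, 1.76 for CSLC04, 1.95 for EXLA1 and 2.22 for XTH18, and all but those of EXPB3 and XTH20 held when any 1 array was left out. At HZE 12 h they were -1.23 for EXPB3, -1.02 for EXLB1, -1.02 for XTH20, 0.73 for EXLA2, 1.54 for XTH18, 1.77 for CSLC04 and 2.20 for EXLA1, and those of XTH20, XTH18, CSLC04 and EXLA1 held.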

How the results depend on the processing

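Of 491 calls of members over 32 comparisons, 469 were kept under cyclic loess, 478 with a trended prior and 490 with the replicate number as a block, and all 373 that could be tested were kept without the dimmer genes. Same-numbered arrays deviated together (correlation over 0.1) in 40 of 231 pairs of groups, so they were not taken to pair the arrays, and whether the HZE runs differed was not tested; the block ended 1 call, TBL39 between the unirradiated genotypes. With controls of both days 302 of 360 calls were kept, 53 ended and 5 changed sign: EXPA16 at WT gamma 12 h (-0.18), and EXLA2 at atm-1 gamma 24 h (-0.10) and HZE 1.5, 6 and 12 h (0.35, 0.17 and 0.12). The cause was not tested. The direct comparison of genotypes kept 25 of 39 ATM calls.

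Counts of members called moved by over 1.5 times with controls of both days at WT HZE 24 h (13), atm-1 HZE 24 h (10), and for ATM dependence at HZE 1.5 h (1) and HZE 24 h (1). Without the dimmer genes, where 34 members of 57 were tested, they moved at atm-1 gamma 1.5 h (9) and 6 h (10), and for ATM dependence at gamma 12 h (4) and HZE 1.5 h (1).

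Each call was refitted without each array of its compared groups in turn, which gave 2220 pairs of call and left-out array. The call was kept in 1692 of these pairs and reversed in none. A call appears in several pairs, so this is not the share of calls that held throughout. That share varied, from 3 of 16 calls at WT gamma 3 h to 25 of 30 at WT HZE 3 h, for example. The counts ran from 10 to 13 at WT gamma 1.5 h, 7 to 11 at 3 h, 9 to 9 at 6 h and 8 to 12 at 12 h, 1 to 4 at WT HZE 24 h, 8 to 10 at atm-1 gamma 1.5 h, 9 to 18 at 6 h and 1 to 3 at atm-1 HZE 24 h. For ATM dependence they ran from 5 to 11 at gamma 1.5 h, 3 to 14 at 6 h, 0 to 2 at 12 h and 0 to 1 at 24 h, 0 to 2 at HZE 1.5 h and 4 to 8 at 12 h, and between unirradiated genotypes from 3 to 6. A group left with 1 array was assumed to vary like the others. With 2 arrays a group, small changes of dim genes may go uncalled.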
